A study of Mus musculus with 15 samples.

Results

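The 4 single cells described here were picked from the metanephric mesenchyme (MM) of the mouse embryo at day 11.5 of gestation. They make up 4 of the 15 arrays of the study, were chosen by their sample titles alone, and keep the numbers of those titles: 14, 15, 16 and 19. All 4 came from embryos with the GENSAT transgene Tg(Crym-EGFP)GF82Gsat, in which regulatory sequence of Crym drives a green fluorescent protein, at Theiler stage 19, of unspecified strain and unknown sex. The mesenchyme was dissected under the microscope and triturated, and cells were taken one at a time with drawn glass needles at a fluorescence microscope. Each cell was lysed in 5 ul of reverse transcription buffer, was not pooled, and went through a single cell amplification recorded as 32 rounds before hybridisation to an Affymetrix Mouse Gene 1.0 ST array. No label names an embryo or a litter, so the cells count as 1 sample. The values below are therefore given cell by cell, with no test, and an SD over cells describes only these 4 cells.

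The metanephric mesenchyme is the tissue that meets the ureteric bud when the kidney begins to form. Around the tips of the bud it condenses into cap mesenchyme, whose progenitors carry Six2 and later form the nephrons. Mesenchyme with Foxd1 surrounds the cap and gives rise to the renal stroma, and vessel precursors lie among both. Crym itself, which encodes a protein that binds thyroid hormone, is known from the cap.

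Signals were used as log2 values, so a difference of 1 is a doubling. Background on each array was set at the 99th percentile of 1212 probe sets for olfactory and vomeronasal receptors, gene families of sensory neurons. It lay at 7.15 in cell 14, 7.40 in cell 15, 7.56 in cell 16 and 7.13 in cell 19. A gene was called bright in a cell if it lay at least 2 log2 units, or 4-fold, above that level, at background if it did not exceed it, and between otherwise. Of 19938 genes, 4121 (20.7%) exceeded background in cell 14, 3161 (15.9%) in cell 15, 2183 (10.9%) in cell 16 and 4222 (21.2%) in cell 19. The bright genes numbered 1783 (8.94%), 1166 (5.85%), 449 (2.25%) and 1760 (8.83%) in the same order. Cell 16 stood apart, with the highest background and the fewest genes above it, and counts that rest on it are given with and without it. Quantile normalization of the 4 arrays left 2186 genes of cell 16 above background, against 4117 in cell 14. The cause of the difference was not tested.

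**Figure D1:**
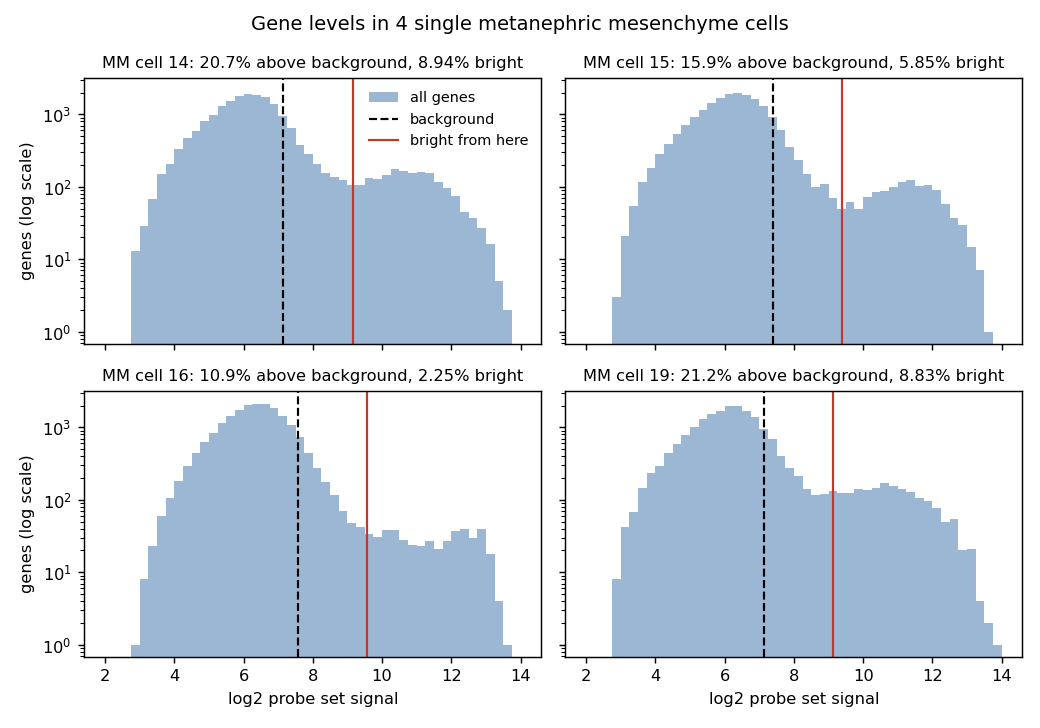
Histograms of log2 probe set signal (x axis) for 19938 genes in each of the 4 MM cells, with the number of genes on a log scale (y axis), the background as a dashed line and the start of the bright range as a red line. Each cell has a main peak near or below background and a separate shoulder of bright genes, which holds 8.94% of genes in cell 14 and 2.25% in cell 16.

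The most common state was a level at background in every cell, and agreement on brightness was rare. Such a level does not show that a gene was not expressed. At background in all 4 cells were 13806 genes (69.2%), while 271 genes (1.36%) were bright in all 4. The 13806 include most of the receptor genes, which set the background and so lie there by construction. On-off genes, which were bright in at least 1 cell and at background in every other, numbered 1423 (7.14%). The remaining 4438 genes had at least 1 value between both levels. Of the 2920 genes bright in at least 1 cell, 9.28% were bright in all 4 and 55.4% in 1 cell only. Without cell 16, 598 genes were bright in the other 3 cells and 1278 were on-off among them. The genes nearest to the bright limit in their lowest cell were Tpm3, Gnb2 and Rpl14, which passed it at 2.02 log2 units above background, and Ddx39b, Bsg and Rps19-ps3, which missed it at 1.999, 1.97 and 1.96.

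How often a gene was shared went with how bright it was, in part by construction. A gene whose brightest cell is near the bright limit has little room to be lower in another cell and still be bright. Among the 779 genes whose brightest cell lay 2 to 3 log2 units above background, 0.899% were bright in all 4 cells and 84.9% were at background in at least 1. Among the 298 genes whose brightest cell lay 5 units or more above background, 50.7% were bright in all 4 cells. Even so, 96 of these very bright genes (32.2%) were at background in at least 1 cell.

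The on-off genes were spread unevenly over the 14 possible patterns. Bright in cell 14 alone were 363 genes (1.82% of all genes), in cell 19 alone 346 (1.74%), in cell 15 alone 128 (0.642%) and in cell 16 alone 12 (0.0602%). Cells 14 and 19 together held 200 (1%), cells 14 and 15 held 60 (0.301%) and cells 15 and 19 held 46 (0.231%). Pairs with cell 16 were rarer, with 13 genes for cells 14 and 16 (0.0652%), 6 for cells 16 and 19 (0.0301%) and 4 for cells 15 and 16 (0.0201%). Of the patterns with 3 bright cells, 218 genes (1.09%) were at background in cell 16, 19 (0.0953%) in cell 15, and 4 each (0.0201%) in cells 14 and 19.

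**Figure D2:**
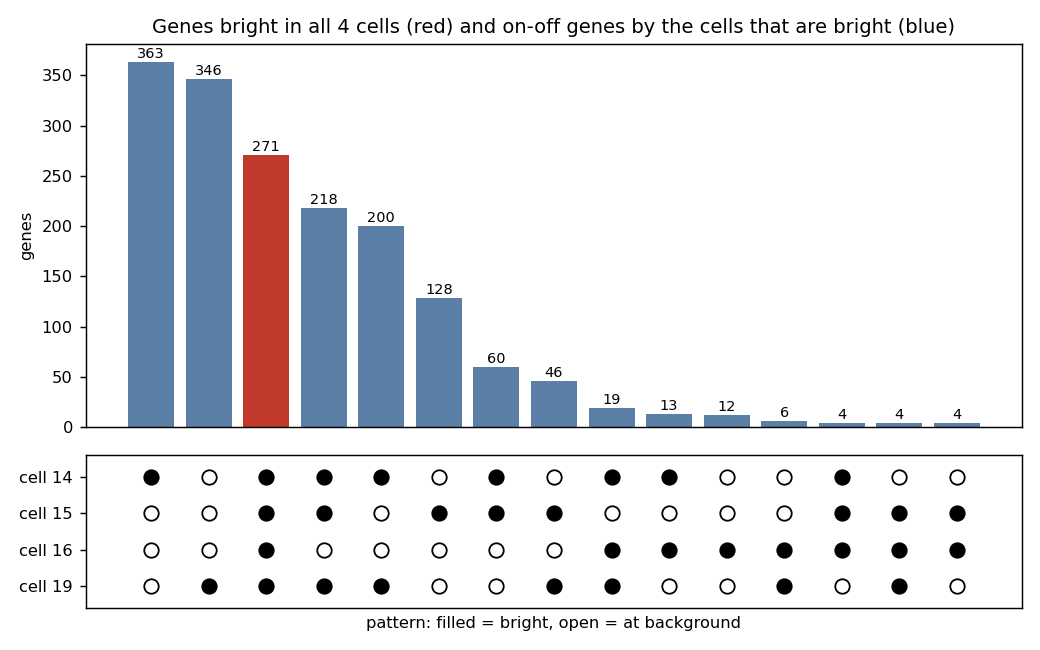
Number of genes (y axis) bright in all 4 MM cells (red) and in each on-off pattern (blue), with the pattern drawn below each bar as filled circles for bright cells and open circles for cells at background. The patterns with only cell 14 bright (363 genes) and only cell 19 bright (346) exceed the 271 genes bright in all 4, and 218 genes are at background in cell 16 alone.

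The genes bright in all 4 cells were mostly parts of the machinery that every cell runs. The 7 lists for ribosomal proteins, translation factors, respiratory chain, proteasome, spliceosome, cytoskeleton and chaperones held 137 of the 271. Rpl9, a protein of the large ribosomal subunit, had the highest level over background in its lowest cell and measured 13.32, 13.27, 13.51 and 13.60 in cells 14, 15, 16 and 19. Eef1a1, the elongation factor that brings aminoacyl tRNA to the ribosome, measured 13.49, 13.43, 13.29 and 13.85. The actin monomer binding protein profilin, encoded by Pfn1, measured 13.56, 13.22, 13.17 and 13.67. All 3 genes sat near the top of every array, with Eef1a1 and Pfn1 lowest in cell 16 and Rpl9 lowest in cell 15.

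Some of these genes were nearly flat over the cells. Rplp0, a protein of the ribosomal stalk, measured 12.97, 12.95, 12.99 and 12.99 (SD 0.02 over 4 cells). Tmsb10, which encodes a thymosin that sequesters actin monomers, measured 12.92, 13.05, 12.94 and 13.02 (SD 0.06). The median SD over cells was 0.46 for the 271 genes, and 133 of them spanned less than 1 log2 unit between the lowest and the highest cell.

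Outside the lists of ribosome, translation, respiration, histones and small nucleolar RNAs, the brightest shared genes were again genes of general upkeep. Tomm20, a receptor of the outer mitochondrial membrane for imported proteins, measured 12.61, 12.95, 12.88 and 12.49. Ftl1, the light chain of the iron store ferritin, measured 12.59, 12.68, 13.05 and 12.82. Elob, the elongin B subunit of ubiquitin ligases, measured 12.69, 12.66, 13.05 and 12.69. Prdx2, a peroxiredoxin that removes hydrogen peroxide, the cytokine gene Mif, the prolyl isomerase gene Ppia and the mitochondrially encoded oxidase subunit COX2 were also bright in every cell, with lowest values of 12.36, 12.78, 12.54 and 12.08. Hk1, the hexokinase that starts glycolysis, measured 12.34, 12.77, 12.83 and 12.43, but its second probe set was at background in all 4 cells. Ribosomal protein genes and Ppia have many near-identical copies in the genome, and their probe sets cannot tell these apart, so their values are uncertain as values of 1 gene.

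Promoters of the shared and of the on-off genes were richer in CpG than those of genes at background in all 4 cells. RefSeq promoters of GRCm38.p6 were taken as 300 bases, from 250 before to 50 after the start. They were matched by symbol to 223 of the 271 genes bright in all 4 cells and 1157 of the 1423 on-off genes. Of the 13806 genes at background in all 4 cells, 10693 were matched. The median ratio of observed to expected CpG was 0.82, 0.81 and 0.49 in these classes. The last class includes most of the receptor genes, which set the background and so lie in it by construction. Their effect on its promoter values, here and below, was not separated. The letters CCGGAAG, the core that ETS family factors are known to bind, were searched on both strands. They were found in 30.0% of promoters of genes bright in all 4 cells and 23.8% of on-off promoters. Of promoters of genes at background in all 4 cells, 9.77% had them, as did 9.12% of all 27025 promoters of the table. Such a match is a description of the letters and not evidence of binding. The promoters of Rps18, a small subunit protein at 13.06, 12.94, 13.07 and 12.95, and of Rpl41, the smallest protein of the large subunit, at 12.86, 12.87, 13.06 and 12.88, are shown as examples, with these letters in capitals. The stretch of Rps18 is chr17:33955694-33955803 on the minus strand and that of Rpl41 chr10:128549178-128549287 on the minus strand, both ahead of the start.
Rps18: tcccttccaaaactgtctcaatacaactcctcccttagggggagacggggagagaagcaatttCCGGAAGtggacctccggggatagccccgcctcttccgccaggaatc
Rpl41: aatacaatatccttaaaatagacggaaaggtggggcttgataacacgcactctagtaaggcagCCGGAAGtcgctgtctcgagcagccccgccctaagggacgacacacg

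Lists of basic functions differed in how far all cells shared them, and cytosolic ribosomal proteins were shared most. Of 61 measured ribosomal protein genes, 51 (83.6%) were bright in all 4 cells, and the count was also 51 without cell 16. The 40S proteins had 21 of 22 and the 60S proteins 29 of 38. On-off members were Rpl12, bright in cell 14 alone at 10.48, and the paralog Rpl7l1, bright in cell 19 alone at 9.61. Rpl10l, Rpl30, Rpl39l and Rpl3l were at background in every cell. Rpl10l, Rpl39l and Rpl3l are tissue-restricted paralogs, while Rpl30 is a core protein of the large subunit.

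ATP synthase genes were also held by every cell. All 17 measured genes with the Atp5 prefix exceeded background in every cell and 15 were bright in all 4. Atp5pb, a stalk subunit, measured 12.66, 13.03, 13.12 and 13.14. Atp5g2, which encodes the membrane ring subunit, measured 13.04, 13.14, 13.05 and 13.11. Complex IV followed with 7 of 10 genes bright in all 4 cells, complex III with 5 of 9 and complex I with 16 of 35. Over the 76 genes of the respiratory list, 44 (57.9%) were bright in all 4 cells and 15 (19.7%) were on-off, 10 of them at background in cell 16 alone. Without cell 16, 60 were bright in the other 3. Cycs, which encodes cytochrome c, was on-off, at 11.70 in cell 14 and 12.13 in cell 19 against 5.55 in cell 15 and 5.63 in cell 16. A second probe set of Cycs had the same pattern, but another was at background in all 4 cells. Ndufs4, an accessory subunit of complex I, was at background in cell 15 alone, at 6.26 against 11.35, 12.58 and 11.80 in cells 14, 16 and 19.

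The proteasome was split between its parts. Genes were assigned by prefix, Psma and Psmb to the 20S core, which cuts proteins, and Psmc and Psmd to the 19S cap, which recognises and unfolds them. Not every gene with these prefixes encodes a standard subunit. The core set had 8 of 19 genes bright in all 4 cells and 2 on-off, whereas the cap set had 0 of 20 and 11 on-off. Of all genes, 1.36% were bright in all 4 cells and 7.14% on-off. Psmb6, a catalytic core subunit, measured 12.83, 11.27, 12.87 and 12.47. In the cap, the ATPase gene Psmc6 measured 11.48 in cell 14 and 5.80, 5.76 and 4.80 in cells 15, 16 and 19. The lid gene Psmd7 was bright in cells 15 and 19 (12.71 and 11.85) and at background in cells 14 and 16 (6.48 and 6.32), while Psmd6 was bright in cells 14 and 15 (11.30 and 11.90) and at background in cells 16 and 19 (6.28 and 5.01). Genes of the cap set above background numbered 17 in cell 14, 10 in cell 15, 3 in cell 16 and 13 in cell 19, beside 20.7%, 15.9%, 10.9% and 21.2% of all genes. Without cell 16, 10 core and 6 cap genes were bright in all of the other 3.

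Chaperone genes were lower as a list in cell 16 than in the other cells. Of 24 heat shock and chaperonin genes, 6 were bright in all 4 cells and 11 in cells 14, 15 and 19. On-off were 9, or 4 without cell 16. Of all genes, 1.36% were bright in all 4 cells and 7.14% on-off. The median level was 11.09, 11.07, 6.63 and 10.83 in cells 14, 15, 16 and 19. All 8 genes of the cytosolic chaperonin CCT, which folds actin and tubulin, exceeded background in cells 14, 15 and 19 and 3 of them in cell 16. Hsp90aa1, the inducible cytosolic HSP90, measured 11.68, 11.86 and 11.77 in those 3 cells and 6.08 in cell 16. The mitochondrial chaperonin pair did not go together. Hspe1, its lid, measured 12.18, 11.43, 12.71 and 11.40, while Hspd1, its barrel, was at 11.84 and 11.37 in cells 15 and 19 and at 4.74 and 5.26 in cells 14 and 16, a pattern that its second probe set shared.

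Of 30 translation and nucleolar genes, 9 (30%) were bright in all 4 cells and 11 (36.7%) were on-off. Of all genes, 1.36% were bright in all 4 cells and 7.14% on-off. Among cells 14, 15 and 19 only, 18 translation genes were bright in all and 5 were on-off. Eif3e, a subunit of the initiation factor eIF3, had the widest span of all named genes, from 3.58 in cell 15 and 4.31 in cell 16 to 10.57 in cell 19 and 11.85 in cell 14. Other subunits of the same factor were even, as Eif3m at 11.66, 12.17, 12.07 and 12.36 and Eif3k at 11.44, 12.83, 12.78 and 12.20. Eif4a1, the helicase of the cap complex, was at background in cell 16 alone, at 7.01 against 12.40, 12.09 and 12.52. The 56 spliceosome genes had 11 (19.6%) bright in all 4 cells and 17 (30.4%) on-off. Among cells 14, 15 and 19 only, 19 of them were bright in all and 13 were on-off. Snrpe, a ring protein of the small nuclear ribonucleoproteins, measured 11.90, 12.23, 12.32 and 12.20. Tra2b, a splicing activator, measured 12.38 and 10.95 in cells 14 and 15 against 5.41 and 5.38 in cells 16 and 19.

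**Figure D3:**
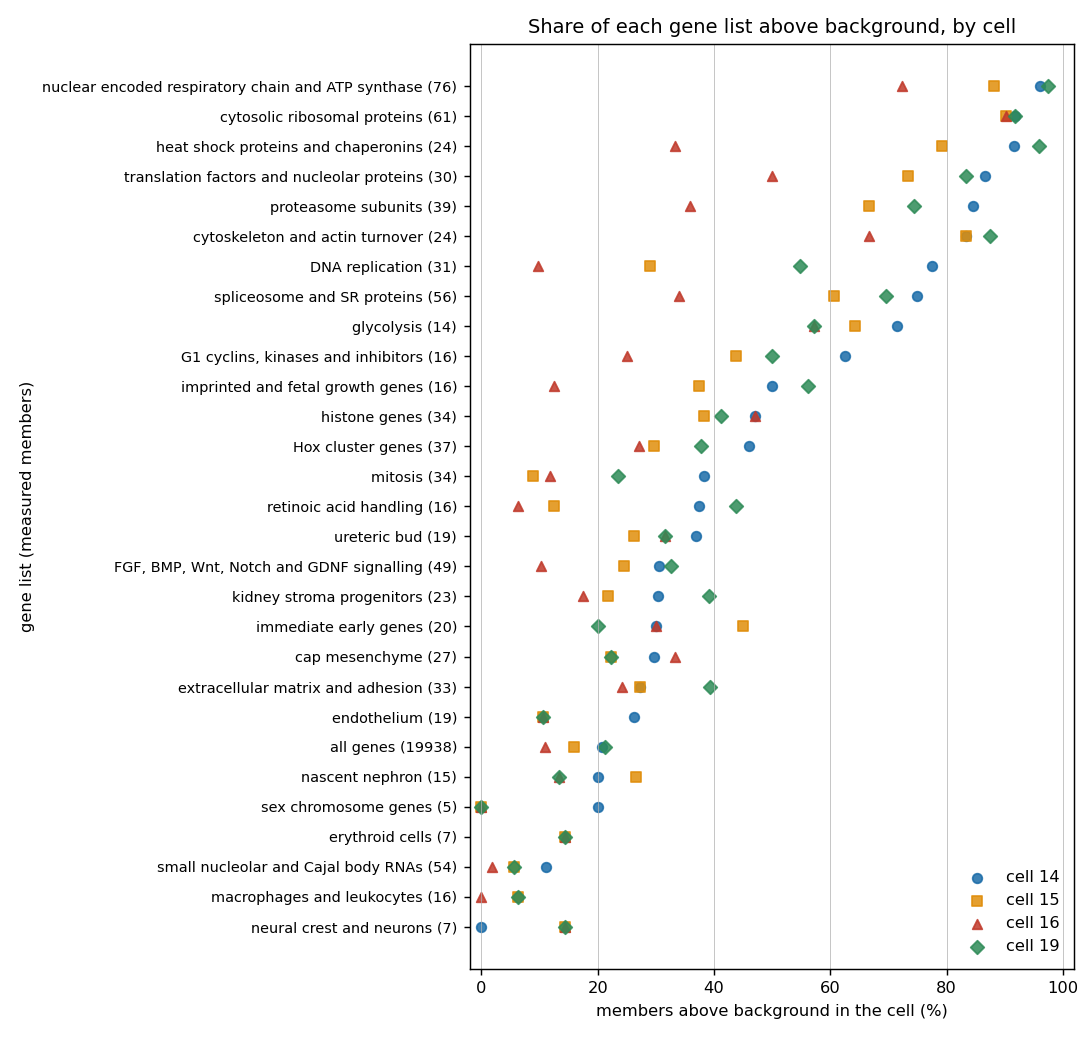
Percentage of the measured members of each of 28 gene lists, and of all genes, above background (x axis) in MM cells 14 (blue circles), 15 (orange squares), 16 (red triangles) and 19 (green diamonds), with the number of measured members in parentheses. Ribosomal protein genes lie near one another in all 4 cells (55 or 56 of 61), while chaperones, proteasome, replication and translation lists lie lowest in cell 16 (8 of 24, 14 of 39, 3 of 31 and 15 of 30).

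Sharing between pairs of cells was highest for cells 14 and 19. They held 965 bright genes in common, 54.1% of the bright genes of cell 14 and 54.8% of those of cell 19. Cells 14 and 15 held 752 (42.2% and 64.5%) and cells 15 and 19 held 722 (61.9% and 41.0%). Cell 16 had 353 in common with cell 14, which is 78.6% of its own bright genes and 19.8% of those of cell 14. Pearson correlations across genes, which share the array and the amplification and are not independent, ran from 0.651 for cells 16 and 19 to 0.746 for cells 14 and 19.

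Genes at background in 1 cell but bright in the other 3 were concentrated in cell 16. Of 598 genes bright in cells 14, 15 and 19, 218 (36.5%) were at background in cell 16 and 271 were bright there too. By contrast, 4 of 284 genes (1.41%) bright in the other 3 cells were at background in cell 14, 19 of 310 (6.13%) in cell 15 and 4 of 287 (1.39%) in cell 19. Genes bright in 1 cell and at background in the other 3 made up 20.4% of the bright genes of cell 14, 10.98% of cell 15, 2.67% of cell 16 and 19.7% of cell 19.

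Some genes at background in cell 16 alone were far above background in the other cells. Mrpl42, a mitochondrial ribosomal protein, had the largest gap, at 11.03, 10.85 and 10.36 in cells 14, 15 and 19 against 3.40 in cell 16. Sarnp, an mRNA export factor, measured 11.30, 11.80 and 11.84 against 4.64, and its second probe set had the same pattern. Srp14, a subunit of the signal recognition particle, measured 12.72, 12.79 and 12.01 against 5.48. The cell did hold bright genes of its own. Ntan1, an amidase of the N-end degradation pathway, measured 12.02 in cell 16 and 4.70, 4.56 and 6.92 in cells 14, 15 and 19, and the Hsp70 cochaperone Bag5 measured 10.26 against 6.35, 6.41 and 6.07. Adgrl2, an adhesion receptor, measured 11.92 in cell 16 against 4.76 to 5.10, but its other 7 probe sets were at background in all 4 cells.

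The genes that set cell 14 apart by the largest gap had varied functions. Mis18a, needed to load the centromeric histone, measured 11.69 in cell 14 and 4.96, 5.69 and 5.08 in cells 15, 16 and 19. Arg1, the cytosolic arginase, measured 12.07 against 5.89, 5.87 and 5.95. Slc40a1, the iron exporter ferroportin, measured 11.19 against 5.56, 5.13 and 5.20. Rbm7, which guides RNA to the nuclear exosome, and the transcriptional coregulator gene Ifrd1 had the same pattern, at 11.03 and 11.19 in cell 14 and at most 5.33 and 4.85 elsewhere. Emcn, taken up with the lineage genes, was among these 8 leading genes as well.

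Cell 15 had fewer genes of its own, and these too had varied functions. Rida, a deaminase that clears reactive imines, measured 12.06 in cell 15 and 5.07, 5.24 and 4.26 in cells 14, 16 and 19. Tbc1d7, a subunit of the TSC complex that restrains mTORC1, measured 11.39 against 4.43, 4.94 and 4.79. Bbs4, part of the BBSome of the cilium, measured 11.11 against 5.16, 5.15 and 4.79. Lamtor3, a scaffold on the lysosome, measured 11.80 against 5.74, 6.38 and 6.01 and had the same pattern in its second probe set. Trip13, an ATPase of the spindle checkpoint, measured 11.54 against 5.49 to 6.16.

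In cell 19 the leading genes encode nuclear, cytosolic and secreted proteins. Gtf2e2, a subunit of the general factor TFIIE, measured 11.94 in cell 19 and 5.02, 5.15 and 4.90 in cells 14, 15 and 16. H2bc4, a core histone gene, measured 10.98 against 4.11, 4.50 and 3.58. Psmg1, a chaperone of proteasome assembly, measured 11.67 against 5.56, 5.47 and 5.31. Efemp1, a fibulin of elastic matrix, measured 11.66 against 5.32, 5.50 and 5.46. Elp4, an Elongator subunit, was at 11.51 against 4.76 to 5.03, with its second probe set at background in every cell.

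Pairs and triples of cells shared further on-off genes. Rheb, the small GTPase that activates mTORC1, measured 11.87 and 11.92 in cells 14 and 19 against 4.53 and 5.07 in cells 15 and 16. Cenph, a kinetochore protein, measured 11.11 and 11.49 in cells 14 and 15 against 4.77 and 4.48 in cells 16 and 19. Mrpl13, a mitochondrial ribosomal protein, was at background in cell 19 alone, at 5.27 against 11.65, 11.66 and 13.08. Among the few genes that cell 16 shared with 1 other cell, the thioredoxin-like gene Txnl1 measured 10.92 and 11.31 in cells 14 and 16 against 5.36 and 4.86. Rab14, a GTPase of endosomes, measured 12.14 and 10.95 in cells 16 and 19 against 6.40 and 5.94.

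The lineage genes gave each cell a different leading marker. Six2 and Uncx mark cap mesenchyme, Foxd1 the stroma and Emcn, which encodes the sialomucin endomucin, endothelium. Six2, the factor that keeps nephron progenitors undifferentiated, measured 10.13 in cell 16 and 7.53, 7.18 and 6.69 in cells 14, 15 and 19. Uncx, a homeobox factor, measured 11.26 in cell 15, 8.23 in cell 16, 7.47 in cell 14 and 7.20 in cell 19. Foxd1 measured 11.33 in cell 19, 9.03 in cell 14, 6.60 in cell 15 and 6.35 in cell 16. Emcn measured 11.77 in cell 14 and 5.32, 6.07 and 5.59 in cells 15, 16 and 19. Each marker was thus bright in 1 cell at the limit used, and no cell was bright for more than 1 of them. Foxd1 in cell 14 narrowly missed that limit, at 1.88 log2 units above background. With bright set at 1 log2 unit, cell 14 was bright for both Emcn and Foxd1. Six2 in cell 16 was not bright with background at the highest receptor probe set, 8.70 in that cell. The same held for the taste receptor, keratin-associated and defensin background, 9.35 there. Of the 4, only Emcn was on-off, since Six2 in cell 14, Foxd1 in cell 14 and Uncx in cells 14, 16 and 19 lay between background and bright. The reporter's own gene Crym measured 7.26, 7.50, 8.61 and 6.90, bright in no cell and highest in cell 16, the cell with the highest Six2.

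Some cap mesenchyme genes exceeded background in each cell, but few were bright. Of 27 measured members, 8 (29.6%), 6 (22.2%), 9 (33.3%) and 6 (22.2%) exceeded background in cells 14, 15, 16 and 19, beside 20.7%, 15.9%, 10.9% and 21.2% of all genes. Of those in cell 16, only Six2 exceeded the highest receptor probe set of that cell, at 8.70. Bright members numbered 0, 2, 1 and 0 in cells 14, 15, 16 and 19, and 15 members were at background in all 4 cells. Besides Uncx, the bright member in cell 15 was Bmp7, a growth factor that supports the progenitors, at 11.16 against 7.13, 7.58 and 6.74. Hoxd11 and Gas1, which encodes a membrane protein that supports growth factor signalling, lay between background and bright in all 4 cells, at 7.88 to 9.15 and 8.19 to 8.56. Cited1, a coregulator of the early cap, and Pax2, a factor essential for the kidney, exceeded background in 3 cells each, with highest values of 7.70 and 7.58. The transcriptional regulators Eya1 and Sall1 and the integrin gene Itga8, which also belong to the cap list, were at background in every cell, with highest values of 6.36, 7.06 and 6.37. Wt1, essential for the mesenchyme's survival, exceeded background in cell 19 alone, at 8.28.

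Bright stroma genes were found mainly in cell 19. Of 23 members, 6 (26.1%) were bright in cell 19, where 8.83% of all genes were. In cell 15 there was 1 (4.35%, beside 5.85% of all genes), and cells 14 and 16 had 0, beside 8.94% and 2.25%. In cell 19 the bright members beside Foxd1 were Meis2, a homeobox factor at 10.97, Ecm1, a matrix protein at 10.30, the collagen genes Col3a1 at 10.62 and Col1a1 at 10.08, and Postn, which encodes the matrix protein periostin, at 9.34. Ecm1 and Postn were at background in the other 3 cells, at 6.53 to 7.23 and 4.80 to 5.32. Meis1, the close relative of Meis2, was instead bright in cell 15, at 11 against 7.16, 6.95 and 6.78.

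Endothelial genes did not accompany Emcn in cell 14. Of 19 members, 5 (26.3%) exceeded background in cell 14 and 2 (10.5%) in each other cell. Of all genes, 20.7%, 15.9%, 10.9% and 21.2% did so in cells 14, 15, 16 and 19. Besides Emcn, the members above background in cell 14 were Sox18, Ets1, Egfl7 and Plvap, at 7.20, 7.40, 7.31 and 7.17. These lay within 0.3 log2 units of the background of 7.15. Pecam1, Cdh5, Kdr, Tek and Cd34, which define the lineage, were at background in all 4 cells, with values of 5.67, 6.01, 5.99, 6.31 and 5.72 in cell 14. Egfl7, a secreted vessel factor, was bright in cell 19, at 9.29. Of the other genes bright in cell 14 alone, Mis18a, Ifrd1 and Arg1 had the largest gaps, and none of them is on the endothelial list. They were ranked by their own gap, which does not measure likeness to Emcn.

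Markers of other cells that a dissection could carry along were mostly not bright. Macrophage and leukocyte genes had 1, 1, 0 and 1 of 16 members above background in cells 14, 15, 16 and 19, erythroid genes 1 of 7 in each cell and neural genes 0, 1, 1 and 1 of 7, and none was bright. Nascent nephron genes had 3, 4, 2 and 2 of 15 above background (20%, 26.7%, 13.3% and 13.3%) and none bright. In lists this short, 0 bright members is not far from the share of all genes and does not show that other cells were absent. Ureteric bud genes had 7, 5, 6 and 6 of 19 above background (36.8%, 26.3%, 31.6% and 31.6%), a larger share in each cell than the 20.7%, 15.9%, 10.9% and 21.2% of all genes. The bright ones were Gata3 at 9.41 and Sox9 at 10.68, both in cell 19. Gata3 was on-off, at 6.14 to 6.91 in the other cells. The part of any other cell type in the values was not tested.

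**Figure D4:**
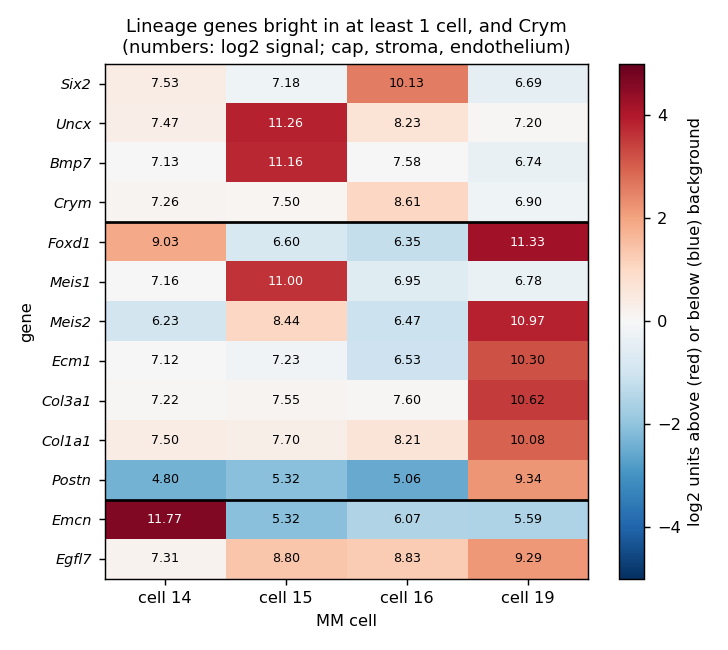
Log2 signal (numbers) in the 4 MM cells (columns) of Crym and of the cap mesenchyme (top), stroma (middle) and endothelium (bottom) genes that were bright in at least 1 cell, coloured by log2 units above (red) or below (blue) background. Six2 is bright in cell 16 alone (10.13), Uncx, Bmp7 and Meis1 in cell 15, 6 stroma genes in cell 19 and Emcn in cell 14 (11.77).

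DNA replication genes differed widely between the cells. Of 31 measured members, 24 (77.4%) exceeded background in cell 14, 17 (54.8%) in cell 19, 9 (29.0%) in cell 15 and 3 (9.68%) in cell 16. The shares of all genes were 20.7%, 21.2%, 15.9% and 10.9%, so cell 16 lay near the share of all genes. Bright were 20 (64.5%), 12 (38.7%), 6 (19.4%) and 0 members in the same order, beside 8.94%, 8.83%, 5.85% and 2.25% of all genes. None was bright in all 4 cells, where 1.36% of all genes were, and 15 (48.4%) were on-off, against 7.14% of all genes. Restricted to genes bright in at least 1 cell, that is 15 of 22, where 48.7% of all such genes were on-off. Without cell 16, 4 were bright in all 3 remaining cells and 12 were on-off. Pcna, the sliding clamp of the polymerases, measured 12.78, 12.81 and 12.64 in cells 14, 15 and 19 and 7.44 in cell 16. Slbp, which binds histone mRNA in S phase, measured 11.42, 11.34 and 11.08 against 6.39. Both were absent above background from cell 16 only, and cell 16 also had the lowest share of all genes above background.

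Genes of the replicative helicase were above background most often in cell 14, though not always brightest there. All 6 Mcm genes of the helicase exceeded background in cell 14, 5 in cell 19, 3 in cell 15 and 1 in cell 16. Mcm6 measured 9.48 in cell 14 and 6.75, 5.47 and 6.88 in cells 15, 16 and 19, while Mcm2 was bright in cells 15 and 19 (11.39 and 11.60) and measured 8.46 in cell 14. Mcm3 and Mcm4 were also slightly higher in cell 19, at 7.88 and 10.64, than in cell 14, at 7.34 and 10.60. Gins1 and Gins2, which couple the helicase to the polymerase, measured 10.74 and 11.08 in cell 14 and at most 5.90 and 7.16 elsewhere. Ccne1, the cyclin of the entry into S phase, measured 11.20 in cell 14 and at most 7.09 elsewhere. Of the origin loaders, Cdt1 was lower in cell 14, at 8.20, than in cells 15 and 19, at 11.75 and 10.63, and Cdc6 was at background in all 4 cells.

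Some enzymes of nucleotide supply and of lagging strand synthesis were bright in cells 14 and 19 only, and others were not. Rrm2, a subunit of ribonucleotide reductase, measured 10.01 and 11.56 there and 6.64 and 6.42 in cells 15 and 16. Tyms, which makes thymidylate, measured 9.70 and 11.49 against 6.53 and 7.24. Fen1, Lig1 and the clamp loader gene Rfc2 had the same pattern, at 9.81 to 11.71 in cells 14 and 19 and 6.35 to 6.99 in the others. Rrm1, the other reductase subunit, and the clamp loader gene Rfc4 were bright in cell 14 alone, at 9.63 and 10.88, with 6.79 and 5.77 in cell 19. Dut, which removes dUTP, was highest in cell 15, at 10.89, with 9.995, 7.65 and 9.36 in cells 14, 16 and 19. Rfc3, another clamp loader subunit, was bright in 3 cells, at 10.95, 12.13 and 11.75 in cells 14, 15 and 19 against 5.80 in cell 16.

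Bright mitosis genes were fewer and lay mainly in cells 14 and 19, which also had the most bright genes in total. Of 34 members, 11 (32.4%), 3 (8.82%), 2 (5.88%) and 7 (20.6%) were bright in cells 14, 15, 16 and 19. Of all genes, 8.94%, 5.85%, 2.25% and 8.83% were. At background in all 4 cells were 20 members, beside 69.2% of all genes. On-off were 8 (23.5%, beside 7.14% of all genes), or 9 without cell 16. Birc5 and Plk1, a chromosomal passenger protein and a mitotic kinase, were bright in cell 14 alone, at 11.16 and 9.18. Cdk1, the kinase that drives entry into mitosis, was bright in cell 19 alone, at 11.15 against 6.49, 6.26 and 7.39. Bub3, of the spindle checkpoint, measured 10.75 and 9.98 in cells 14 and 19 against 5.19 and 5.10 in cells 15 and 16, and Spc25, of the kinetochore, had the same pattern at 9.98 and 11.25 against 4.66 and 5.80. Cell 16 was bright for Ube2c, the ubiquitin conjugating enzyme of the anaphase promoting complex, at 11.90, and for Cks1b, a cyclin kinase subunit, at 12.82. Cks1b was the 1 mitosis list gene bright in all 4 cells, while its relative Cks2 was on-off, at 10.31 and 10.12 in cells 14 and 19 against 6.93 and 4.64.

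Regulators of G1 were again led by cell 14. Cdk4, the kinase partner of the D cyclins, was even, at 12.42, 12.23, 12.59 and 12.42. E2f1 and E2f3, transcription factors of the S phase genes, were bright in cell 14 alone, at 10.69 and 10.55, with at most 7.0 and 6.02 elsewhere. Cdkn1c, an inhibitor of the cell cycle, measured 10.48, 11.80, 8.05 and 10.74. The list's median level was 9.74 in cell 14 and 6.85 to 7.12 in the other cells.

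**Figure D5:**
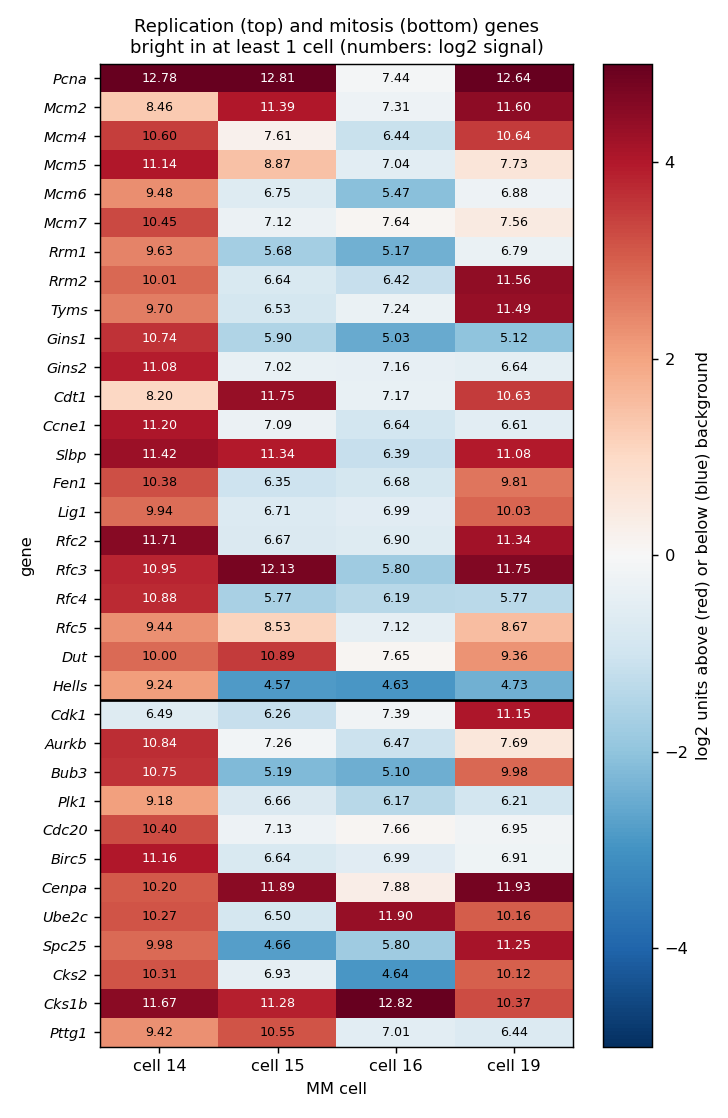
Log2 signal (numbers) in the 4 MM cells (columns) of the DNA replication genes (top) and mitosis genes (bottom) that were bright in at least 1 cell, coloured by log2 units above (red) or below (blue) background. Cell 14 is bright for 20 replication and 11 mitosis genes, cell 19 for 12 and 7, cell 15 for 6 and 3 and cell 16 for 0 and 2. Of all genes, 8.94%, 8.83%, 5.85% and 2.25% were bright in cells 14, 19, 15 and 16.

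The promoters of the replication and mitosis lists were searched for letters known from cell cycle genes. For E2F factors, TTTCCCGC, TTTGGCGC and TTTCGCGC were searched on both strands, where matches on opposite strands can overlap. They were found in 9 of 25 replication promoters (36%) and in 1.91% of all promoters of the table. Of the 9 genes with the letters, 6 were bright in some cell, as were 12 of the 16 without them. In mitosis promoters TTTGAA, the letters of the cell cycle genes homology region that the DREAM and MuvB complexes read, was found in 21 of 30 (70%), against 18.1% of all, and CCAAT in 22 of 30 (73.3%), against 37.9%. Genes with these letters and genes without them were both found among the bright genes and among those at background in all 4 cells. The stretches below, all ahead of the start, show 4 replication genes with E2F letters in capitals and 2 mitosis genes with TTTGAA or its reverse complement in capitals. Their positions on GRCm38.p6 are chr8:75109298-75109407 on the plus strand for Mcm5, chr1:128359706-128359815 on the minus strand for Mcm6, chr19:38930866-38930975 on the plus strand for Hells, chr5:151651209-151651318 on the minus strand for Rfc3, chr10:69352913-69353022 on the minus strand for Cdk1 and chr7:131560260-131560369 on the plus strand for Bub3.
Mcm5: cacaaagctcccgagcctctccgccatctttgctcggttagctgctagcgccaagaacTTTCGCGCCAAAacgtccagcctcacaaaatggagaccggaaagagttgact
Mcm6: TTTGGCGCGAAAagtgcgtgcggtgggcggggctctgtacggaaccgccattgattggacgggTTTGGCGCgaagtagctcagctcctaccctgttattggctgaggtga
Hells: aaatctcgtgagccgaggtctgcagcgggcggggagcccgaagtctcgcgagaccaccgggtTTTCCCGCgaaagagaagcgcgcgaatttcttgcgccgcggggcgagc
Rfc3: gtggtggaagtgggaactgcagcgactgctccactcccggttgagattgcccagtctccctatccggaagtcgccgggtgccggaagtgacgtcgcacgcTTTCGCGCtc
Cdk1: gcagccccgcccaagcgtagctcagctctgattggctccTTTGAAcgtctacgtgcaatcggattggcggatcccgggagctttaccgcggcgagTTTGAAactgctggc
Bub3: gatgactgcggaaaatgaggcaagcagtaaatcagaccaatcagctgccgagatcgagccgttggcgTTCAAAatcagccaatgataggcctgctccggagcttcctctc
These genes differed in the cells where they were bright. Mcm6 and Hells, a chromatin remodeller at 9.24 in cell 14 and at most 4.73 elsewhere, were bright in cell 14 alone. Mcm5 was bright in cell 14 at 11.14 and lay between in cells 15 and 19, and Rfc3 was at background in cell 16 only.

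Signalling genes had bright members in 3 of the 4 cells. Of 49 FGF, BMP, Wnt, Notch and GDNF pathway genes, 6, 2, 0 and 7 were bright in cells 14, 15, 16 and 19 (12.2%, 4.08%, 0% and 14.29%), beside 8.94%, 5.85%, 2.25% and 8.83% of all genes, and 26 were at background in all 4 cells. Bmp4, a growth factor of the mesenchyme around the bud, measured 9.52 and 10.17 in cells 14 and 19 against 7.13 and 6.82. Bmp2 was bright in cell 19 alone at 9.21, and the signal transducers Smad1 and Smad5 in cell 14 alone at 10.13 and 9.79. The Wnt receptor gene Fzd2 measured 10.52, 11.44 and 10.63 in cells 14, 15 and 19 and 7.35 in cell 16. The 3 BMP ligands that were bright were thus held by different cells, Bmp7 by cell 15, Bmp2 by cell 19 and Bmp4 by cells 14 and 19.

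Among retinoic acid genes, 3 were bright in both cell 14 and cell 19. Of 16 members, 4 were on-off (25%, beside 7.14% of all genes) and 8 were at background in all 4 cells. Crabp1 and Crabp2, which bind retinoic acid in the cytosol, measured 11.64 and 12.06 in cell 14 and 12.49 and 12.10 in cell 19, against 6.26 to 6.94 in cells 15 and 16. Dhrs3, which reduces retinaldehyde, had the same pattern at 10.90 and 9.15, at the bright limit of cell 19. The retinoic acid receptor gene Rarg was bright in cell 19 alone, at 9.52. Rdh10, which makes retinaldehyde, was bright in cell 15 at 11.04 and measured 9.12 in cell 19.

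In the matrix and adhesion list, Sparc, a collagen binding glycoprotein, was bright in cell 19 alone at 11.31. Fbln1, a fibulin, was bright in cell 14 alone at 11.18. Itgb1, the beta chain of most matrix receptors, measured 9.96, 10.84 and 10.80 in cells 14, 15 and 19 and 6.26 in cell 16. Gpc3, a glypican of the cell surface, was bright in cells 14 and 19, at 10.78 and 10.42, with 8.89 in cell 16 and 5.75 in cell 15.

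Imprinted genes were bright in cells 14, 15 and 19. In these cells 4 (25%), 5 (31.2%) and 5 (31.2%) of 16 members were bright, beside 8.94%, 5.85% and 8.83% of all genes, and in cell 16 it was 0, where 2.25% of all genes were bright. Mest, a growth-related hydrolase gene, measured 12.70, 11.16 and 12.16 in cells 14, 15 and 19 and 6.64 in cell 16. Nnat, a small membrane protein gene, measured 11.55, 9.49 and 9.68 against 6.75. Ndn, which encodes the growth suppressor necdin, was bright in cells 14 and 19, at 10.39 and 10.29, and at background in cells 15 and 16, at 4.69 and 5.27.

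Hox genes, which set position along the body axis, had bright members in every cell. Of 37 members, 6, 2, 2 and 5 were bright in cells 14, 15, 16 and 19 (16.2%, 5.41%, 5.41% and 13.5%), beside 8.94%, 5.85%, 2.25% and 8.83% of all genes. At background in all 4 cells were 18, beside 69.2% of all genes. Hoxa5 measured 10.24, 11.03 and 10.66 in cells 14, 15 and 19 and 7.15 in cell 16. Hoxc10 measured 9.85 and 10.67 in cells 14 and 19 against 6.56 and 7.22. Hoxc9 was bright in cells 15 and 16, at 9.73 and 10.13, and at background in cells 14 and 19, at 7.11 and 6.97, the 1 Hox gene with that pattern. Hoxa11, which with its paralogs Hoxc11 and Hoxd11 is needed for the kidney, was at background in every cell, at 6.52 to 6.93, and so was Hoxc11, while Hoxd11 measured 8.62, 9.15, 7.88 and 8.50, above background in all 4 cells and bright in none.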

How the data were processed

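Signals of the 4 MM cells were taken as deposited by the authors, on a log2 scale as their range of 2.28 to 13.92 shows. The submitters' processing notes name Affymetrix Expression Console, with no version. How probes were summarised and whether arrays were scaled to one another was not stated there, so values were used unchanged. Arrays have no count depth, and the number of cells limits the precision.

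Of 35557 probe sets, the platform annotation lists 23410, of which 21789 name 1 gene and 1621 several, while 12147 are unlisted. Through the RefSeq table of GRCm38.p6, 21698 matched and 0 changed symbol. Each of the 19938 genes was represented by its probe set with the highest mean over the 4 cells, and 999 genes had several. Series columns without a sample numbered 0.

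No test was run. The classification was tested on simulated data. Members, lists and rules were chosen with earlier results of these data known. Named genes were the 20 genes bright in all 4 cells with the highest margin in their lowest cell, and 10 more outside 5 lists. They also include the 8 genes (1 bright cell) or 4 genes (2 or 3 bright cells) with the largest gap per on-off pattern, the 10 widest and 10 narrowest ranges, and 5 markers. Of each list, the 4 brightest, the shared and the on-off members were named. Other genes, such as further bright or defining members of the lineage, replication, ribosomal, Hox and histone lists, were chosen after their values were seen, and so were the splits into complexes. Gene lists without cell 16, and cell counts after quantile normalization, were alternatives added after seeing the data. Python 3.11.15, numpy 2.4.6, pandas 2.3.3 and matplotlib 3.10.9 were used.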

Additional observations from a re-analysis of the deposited data

Results flagged for a closer look

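In 276 results, the highest or lowest of the 4 cells was compared with the other 3, and 28 had a gap that is large for their whole range. For continuous values chance gives such a gap in about 1 of 20 groups. That rate does not hold for the counts of list members below, where any cell that differs from 3 equal ones is listed, even by 1 gene. Another 81 of 189 named on-off genes also had such a gap but were chosen for cells that stand apart, so they are not listed. No explanation was tested for any of them.

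Several list medians and genes were lowest in cell 16. The median level was 7.56 for translation factors (10.74 to 11.32 in the other cells), 10.26 for the respiratory list (11.51 to 11.67) and 6.63 for chaperones (10.83 to 11.09). Single genes lowest in cell 16 were Aldoa at 9.98, Cox7a2 at 10.58, Cox7a2l at 10.17, Eef1b2 at 10.53, Naca at 9.07, Rpl29 at 10.36, Rpl5 at 11.08, Sdhc at 10.44 and Tubb5 at 8.72. The number of macrophage and leukocyte genes above background was 0 in cell 16 and 1 in each other cell. Cell 16 was highest for Elob at 13.05, Rpl41 at 13.06 and the Y-linked Uty at 6.29, which is below background.

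Cell 14 was highest for the median of the G1 list, at 9.74, for endothelial genes above background (5 against 2), for sex chromosome genes above background (1 against 0) and for Etv4, a target of FGF and Ret signalling, at 8.87, and lowest for neural genes above background (0 against 1). Cell 15 was highest for the median of nascent nephron genes, at 7.23, which is below the background of that cell, 7.40. It was also highest for Meis1 at 11, Dusp1, a phosphatase of the immediate early list, at 8.54 and Cx3cr1 at 7.68, and lowest for Rps4l at 9.62. Cell 19 was highest for Col3a1 at 10.62 and lowest for the median of sex chromosome genes, at 4.85, which is also below background.

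Among 13768 probe sets that the annotation gives no single gene, 732 (5.32%) were bright in all 4 cells and enter no count of genes.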

How the results depend on the processing

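With background at the highest receptor probe set, 163 genes were bright in all 4 cells, 925 were on-off, and 10.7% of genes above background in any cell were above it in all 4 (21.5% at the setting used). With background from taste receptor, keratin-associated and defensin probe sets these values were 146, 903 and 9.71%. With the 95th percentile of the receptors the overlap was 40.05%. With bright set at 1 or 3 log2 units above background, 427 and 180 genes were bright in all 4 cells, and 829 were on-off at 3 units. Genes with 1 probe set gave 165 bright in all 4, a rule that leaves out 999 genes by construction. Leaving out each cell in turn gave 284 to 598 genes bright in all, 1251 to 1413 on-off, 14047 to 14688 at background in all and an overlap of 25.9% to 35.3%, where 598 and 35.3% are without cell 16. Quantile normalization, a fixed signal of 10 and the mean of a gene's probe sets moved no count of these 3 classes by over 1.5 times. No named gene turned from bright to background, or an on-off gap from positive to negative, under the backgrounds, normalization and probe set rules tried. That check was a weak one. A gap compares cells with one another, so a change of background largely cancels in it. For bright genes only a value above background was asked for, not the 2 log2 units of the bright limit. In each cell that limit lay above every background tried, so a change of background alone could not fail the check. The check therefore does not show that genes kept their class. The cause of the shifts was not tested. No paired analysis was possible because there is 1 group and no test. Of the 1423 on-off genes, 560 kept their pattern with background at the highest receptor and 783 with the 95th percentile. With the highest receptor, 58 counts of list members above background in a cell moved by over 1.5 times and 54 did not. The same numbers held with the 95th percentile. Counts of list members above background therefore depend on where background is set. Below background these arrays give no order of levels, and with 4 cells of 1 group no spread between embryos can be given.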

Other observations

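Histone and small nucleolar RNA genes were not described above. The replacement histones H2az1 (12.88, 12.86, 12.84 and 12.67 in cells 14, 15, 16 and 19), H2az2 (12.83, 13.28, 12.80 and 13.24) and H2ax (11.37, 10.54, 11.45 and 10.72) were the 3 of 34 histone genes bright in all 4 cells. Bright histone genes numbered 9 in cell 16, more than the 7, 7 and 4 of cells 14, 15 and 19, although cell 16 had the fewest bright genes in total. Among those in cell 16 were the linker histone H1f2, on-off at 10.17 against 5.95 to 6.66, and the core histones H4c4 at 12.03 (8.97 to 9.63 in the other cells) and H4c6 at 10.51 (7.59 to 8.36). Replication-dependent histone genes are near-identical copies, so the values of single members are uncertain.

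Small nucleolar RNAs, which guide the modification of ribosomal RNA, were at background in all 4 cells for 47 of 54 genes, beside 69.2% of all genes. Snord52 and Snora3 were bright in cell 14 alone, at 10.63 and 11.27, and Snord73a in cell 15 alone, at 11.81. Of the sex chromosome genes, the Y-linked Eif2s3y measured 8.18 in cell 14 and 4.41, 5.43 and 4.70 in cells 15, 16 and 19, and it was the 1 of 5 above background in any cell. The mitochondrial ribosomal proteins, whose mRNA is nuclear, had 4 of 74 genes bright in all 4 cells and 18 on-off. The cytosolic ribosome had 51 of 61 and 2. Of all genes, 1.36% were bright in all 4 cells and 7.14% on-off.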
